A study of Mus musculus with 6 samples.

Results

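Adhesion G-protein-coupled receptors are described here across bulk RNA sequencing libraries of sorted mouse microglia, the resident macrophages of the brain. The set holds 9 of the 49585 genes counted, among them Adgre1, Adgre4 and Adgre5 of subfamily E, Adgrg1, Adgrg3 and Adgrg6 of subfamily G, and the latrophilins Adgrl1 and Adgrl2. They are given by name, out of a mouse family of 30 genes. The study holds 3 libraries of wild-type animals (WT) and 3 of animals labelled IRF8KO, which names a knockout of the gene of the transcription factor IRF8. The mice were males aged 3 months, 1 brain gave 1 library, and the cells were freed without enzymes and sorted by flow cytometry into TRIzol. The form of the Irf8 allele, the mice's strain and the markers used to sort were not given in the sources used here. The comparison of IRF8KO with WT asks how the receptors' transcripts differ between mice with these labels.

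An adhesion GPCR joins a long outer region, built of adhesion modules, to a bundle of membrane-spanning helices that couples to G proteins. Most of them cut themselves next to the membrane during their own folding, at a site inside the GAIN domain, and a short stretch behind that cut can switch the receptor on when the outer region is pulled away. Their ligands sit on other cells or in the matrix, so the family links contact with the surroundings to signals inside the cell. In the brain's macrophages the best known members are Adgrg1 (GPR56), used as a mark of resident microglia, and Adgre1, which encodes the macrophage antigen F4/80.

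Depth ranged from 3658917 to 11098363 counts in genes per library. IRF8KO replicates correlated with each other at Pearson's r of 0.926 to 0.943 over log2 CPM of the tested genes. CPM are counts divided by a library size that TMM, edgeR's scaling of each library against the others, has adjusted, in the usual units of counts per M. WT replicate 3 stood apart from WT replicates 1 and 2, with r of 0.892 and 0.897 against 0.969 between those, and its difference from them followed the genes' GC content (Spearman's rho 0.615 over 11034 genes, which are not independent replicates). Apoe held 25.5% to 33.7% of the counts in the IRF8KO libraries and 0.154% to 0.324% in the WT libraries. Irf8 itself was counted in all 6 libraries, with 795, 851 and 1403 CPM in WT and 743, 650 and 850 CPM in the libraries labelled IRF8KO (log2 fold change −0.44, SE 0.33, edgeR, Benjamini-Hochberg adjusted p = 0.368). The genotype could therefore not be read from its counts, and every direction given here rests on the labels. All 13 microglial markers were tested, with 1 higher and 7 lower in IRF8KO and Sall1 at 0 in the 3 IRF8KO libraries, and their summed level was 44359 to 72221 CPM in WT and 33207 to 46461 CPM in IRF8KO.

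Sequences ahead of the annotated starts are shown for the receptor with the most counts, Adgrg1, and for the latrophilin that differed, Adgrl2. They come from RefSeq on GRCm38.p6, which lists 8 start windows of 300 bases (250 before and 50 after the start) for 7 of the 9 genes; no window was listed for Adgre1 and Adgre5. Each is written 5′ to 3′ on the gene's own strand and is 1 unbroken stretch of the window before the start that lies outside the receptor's exons. All letters are in lower case because none of the motifs searched was found in them.
Adgrg1, first start, chr8:94976859-94976992, plus strand: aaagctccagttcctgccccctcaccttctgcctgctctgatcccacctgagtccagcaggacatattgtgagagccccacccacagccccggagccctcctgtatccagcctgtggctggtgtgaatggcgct
Adgrg1, second start, chr8:94984149-94984370, plus strand: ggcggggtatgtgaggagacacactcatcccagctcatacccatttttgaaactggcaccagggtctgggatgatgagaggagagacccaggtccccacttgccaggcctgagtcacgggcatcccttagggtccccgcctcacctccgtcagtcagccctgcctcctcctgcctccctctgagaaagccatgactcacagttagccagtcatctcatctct
Adgrl2, chr3:148954788-148954885, minus strand: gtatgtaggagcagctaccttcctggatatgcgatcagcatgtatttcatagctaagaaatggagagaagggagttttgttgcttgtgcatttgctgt
The letters searched, on both strands, were AANNGAAA for an IRF core, GGAANNGAA for a composite of ETS and IRF sites, the form IRF8 uses together with PU.1, and GAGGAAGT for PU.1. The IRF core and the composite share letters and can overlap. An IRF core was found in 23.9% of the 32851 windows of all genes, the composite in 8.24% and the PU.1 letters in 3.20%. None of these letters was found in either Adgrg1 window or in the Adgrl2 window, which says nothing of sites elsewhere. These starts, at 94977109 and 94984399 for Adgrg1 and at 148954635 for Adgrl2, lie within the gene spans given below. The outermost ends of those spans were thus not searched. The windows of the other receptors are not described here. The 250 bases before the start were richer in G and C at Adgrg1 (60.8% and 59.2%) than at Adgrl2 (37.6%).

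Of the 9 receptor genes, 4 had enough counts to be tested and 5 did not. Adgrg1 and Adgrl2 fell and Adgre5 rose in IRF8KO, while Adgre1, the most abundant receptor of the IRF8KO libraries per length, did not pass the test. Across all 11041 tested genes, 19.1% were called at an adjusted p under 0.05, 9.64% higher and 9.46% lower in IRF8KO, with a median log2 fold change of −0.11. The groups did not overlap for all 4 tested receptors and for 37.9% of all tested genes. Adgre5 passed the filter on low counts only through the IRF8KO libraries and Adgrl2 only through the WT libraries, so these counts describe the receptors and stand for nothing more. In RNA of whole sorted samples, fewer cells that make a transcript and less of it per cell cannot be told apart. The edgeR p-values set the difference between the groups against the spread between these 6 animals. That spread is estimated for each gene with information from all tested genes.

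**Figure D1:**
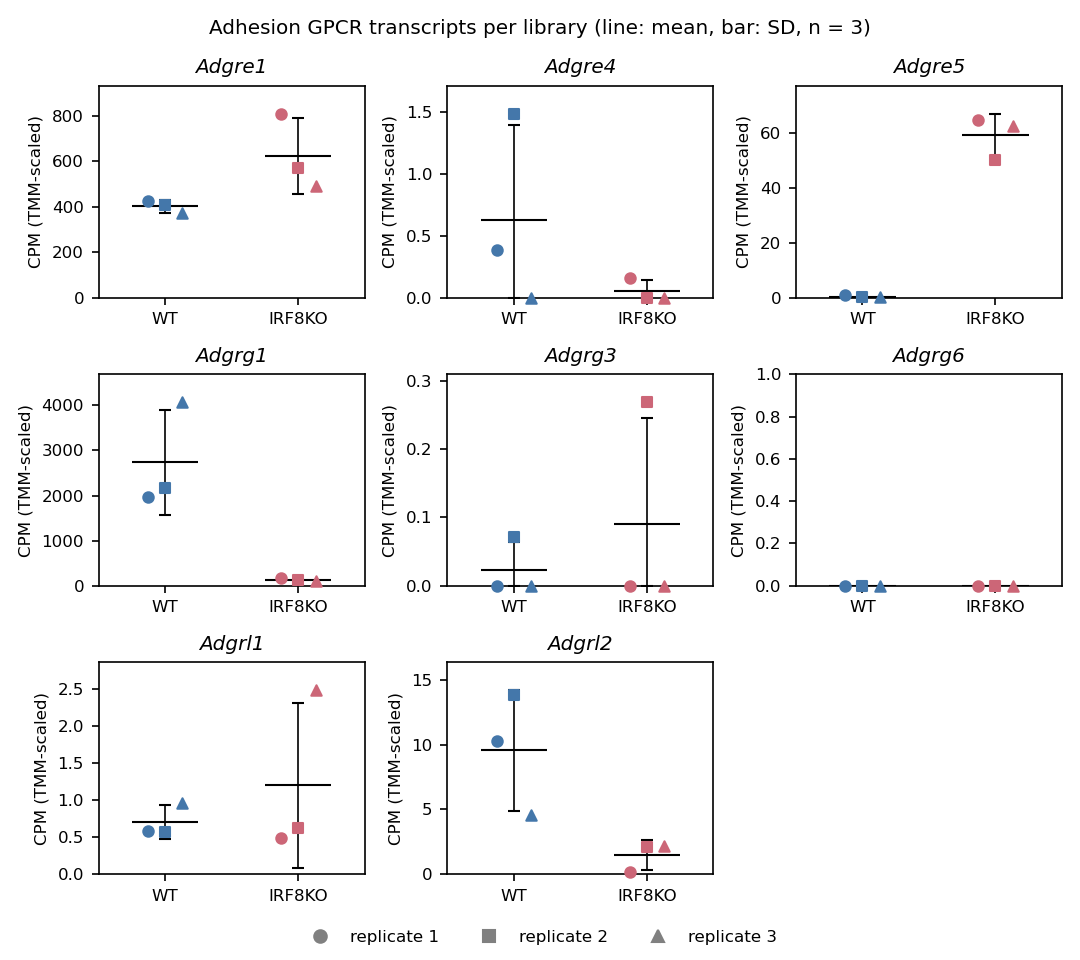
TMM-scaled CPM (y axis, from 0, its own scale in each panel) of 8 receptors in each WT and IRF8KO library; symbols are replicates, lines the group means and error bars 1 SD. Adgrg1 lies at 1977 to 4079 CPM in WT and 116 to 174 in IRF8KO, and Adgre5 at 0.0708 to 0.778 and 50.3 to 64.8.

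Adgrg1 (ENSMUSG00000031785.16; chr8:94974751-95014217, plus strand, 5421 exonic bases, none shared with another gene) encodes GPR56, a receptor for transglutaminase 2 and collagen III that is also known to bind phosphatidylserine on the surface of cells. Its counts were 10161, 30536 and 29589 in WT replicates 1, 2 and 3 and 1086, 1422 and 1074 in IRF8KO replicates 1, 2 and 3. In CPM these were 1977, 2162 and 4079 in WT and 174, 128 and 116 in IRF8KO. Every WT library stood above every IRF8KO library, and WT replicate 3 was the highest. The mean was 2739 ± 1164 CPM in WT against 139 ± 30.7 in IRF8KO (SD, n = 3 each). Adgrg1 was thus 19.6-fold lower in IRF8KO, with a log2 fold change of −4.30 (SE 0.42; edgeR, Benjamini-Hochberg adjusted p = 4.4e-05). It was the 127th lowest log2 fold change of the 11041 tested genes. By level per kb of exon it stood 54th among tested genes in WT and 1688th in IRF8KO, so it was still well counted in the libraries labelled IRF8KO.

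The fall of Adgrg1 was called in all 17 alternatives to the processing, with log2 fold changes between −4.74 and −3.86 and adjusted p-values of at most 0.0027. Without WT replicate 3 the log2 fold change was −3.86 (SE 0.21), the smallest of these. The gene has 56.2% GC, and with an offset for each library's dependence on GC content its log2 fold change was −4.54 (SE 0.19). Scaling by library size alone, with no TMM, gave −4.74.

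Adgre1 (ENSMUSG00000004730.14; chr17:57358691-57483527, plus strand, 3238 exonic bases, none shared) encodes F4/80, the antigen by which mouse macrophages are often recognised. Its counts were 2183, 5778 and 2681 in WT and 5043, 6361 and 4522 in IRF8KO. In CPM the WT libraries had 425, 409 and 370 and the IRF8KO libraries had 809, 571 and 490. The IRF8KO values lay above the WT values, and IRF8KO replicate 1 was the highest. Their means were 401 ± 28.4 CPM in WT against 624 ± 166 in IRF8KO (SD, n = 3 each). The log2 fold change of 0.64 (SE 0.30) did not pass the test (edgeR, Benjamini-Hochberg adjusted p = 0.158; unadjusted p = 0.055). Which libraries were higher depended on the scaling: in CPM of the plain library size, without TMM, WT had 597, 532 and 339 and IRF8KO had 561, 584 and 407, the groups overlapped, and the log2 fold change was 0.08. Adgre1 was called only with the GC offset, at a log2 fold change of 0.77 (edgeR, Benjamini-Hochberg adjusted p = 0.033), 1 of 17 alternatives. Per kb of exon it was the 296th gene in WT and the 210th in IRF8KO.

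Adgre5 (ENSMUSG00000002885.14; chr8:83723251-83741326, minus strand, 3757 exonic bases) encodes CD97, a leukocyte receptor that binds CD55 and Thy1 on other cells. Its counts were 4, 1 and 2 in WT and 404, 561 and 579 in IRF8KO. In CPM these were 0.778, 0.0708 and 0.276 in WT against 64.8, 50.3 and 62.8 in IRF8KO. WT libraries thus held at most 4 counts each in this column, and the IRF8KO libraries lay close together. The means were 0.375 ± 0.364 CPM in WT against 59.3 ± 7.85 in IRF8KO (SD, n = 3 each). The fitted log2 fold change was 7.62 (SE 0.58; edgeR, Benjamini-Hochberg adjusted p = 6.8e-06). With 7 counts in all of WT, the size of the ratio is poorly fixed: the summed counts, scaled, gave a ratio of 220, with an exact 95% interval of 106 to 548 that covers counting error only. By level per kb Adgre5 stood at rank 10753 in WT and 2399 in IRF8KO.

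The rise of Adgre5 was called in all 16 alternatives in which it was tested, at log2 fold changes from 5.67 to 8.54. It was smallest in the strand columns, at 5.82 and 5.67, and among the fits with 1 library left out it ranged from 6.85 without WT replicate 2 to 8.54 without WT replicate 1. Of its exonic length, 24.6% is shared with Ddx39, an RNA helicase gene on the plus strand, and with Mir1668. The column without strand sets reads on more than 1 gene aside as ambiguous, so the shared part adds no counts there. Levels per kb of Adgre5 still divide by its whole exonic length. The libraries do not mark strand, so the strand columns give reads in the shared part to Adgre5 or Ddx39 whichever gene made them. The WT libraries had 3, 9 and 10 counts in the first strand column and 9, 9 and 6 in the second, more in sum than the counts without strand, and IRF8KO had 334, 463 and 457 and 359, 481 and 498. The size of the fold thus depends on the column used, and the interval of the ratio holds only for the counts without strand. Ddx39 had 90.1 ± 16.2 CPM in WT and 150 ± 17.6 in IRF8KO (SD, n = 3 each) and was not called (log2 fold change 0.74, SE 0.27; edgeR, Benjamini-Hochberg adjusted p = 0.0770).

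CD97 is made by many leukocytes, so markers of other blood cells were read beside Adgre5. The 12 monocyte markers summed to 0.414 to 1.49 CPM in WT and to 4.33, 56.7 and 3.69 CPM in IRF8KO replicates 1, 2 and 3, with 7 of them at 0 in all WT libraries and 2, among them Gpr141, at 0 in all IRF8KO libraries; the 1 that was tested was called higher. IRF8KO replicate 2 also had granulocyte transcripts, such as S100a8 at 121 CPM and Ngp at 79.2 CPM. Adgre5 had a log2 fold change of 7.73 without this library. The 12 neutrophil markers summed to 651 to 1001 CPM in WT and 871 to 1370 CPM in IRF8KO, mostly Csf3r, with 1 of 2 tested called higher, and Cxcr2 had 0 counts in each WT library and 10, 46 and 16 in IRF8KO. Among the 15 genes of T, NK and B cells, 1 of 3 tested was called higher and 2 lower, and the sum was 519 to 859 CPM in WT and 34.9 to 45.1 CPM in IRF8KO, mostly Ighm and Cd79b. Cd3e, Cd8a, Ncr1, Gzma and Ms4a1 were among those at 0 in all 6 libraries, while Cd4 had 0 counts in each WT library and 26, 37 and 41 in IRF8KO. Of 12 markers of border-associated macrophages, which live at the brain's surfaces and vessels, 9 were tested and all 9 were called higher. Over all tested genes 9.64% were called higher. Cd163, F13a1, Ms4a7 and Clec12a passed the filter on low counts only through the IRF8KO libraries, as did Fn1 of the monocyte markers, Cxcr2 and Cd4. The border-associated markers' sum was 612 to 837 CPM in WT and 3922 to 5113 CPM in IRF8KO. Stab1 alone made up 602, 651 and 823 CPM of the WT sums and 2308, 1767 and 1775 CPM of those in IRF8KO. Lyve1 and Cd209f were at 0 in every library, and Cd163 and F13a1 at 0 in WT only. Folr2, also untested, had 0, 0 and 2 counts in WT and 0, 1 and 1 in IRF8KO. The part of these cells in the Adgre5 and Adgre1 levels was not tested.

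Adgrl2 (ENSMUSG00000028184.12; chr3:148815583-148990555, minus strand, 14198 exonic bases, 1.42% of them shared with Gm43573) encodes latrophilin 2, a receptor for teneurins and FLRT proteins known from synapses and vessels. Its counts were low, at 53, 195 and 33 in WT and 1, 23 and 20 in IRF8KO. In CPM the libraries had 10.3, 13.8 and 4.55 in WT and 0.161, 2.06 and 2.17 in IRF8KO. The groups did not overlap, and the values spread widely within each. Mean levels were 9.56 ± 4.67 CPM in WT against 1.46 ± 1.13 in IRF8KO (SD, n = 3 each). The receptor was 6.29-fold lower in IRF8KO, with a log2 fold change of −2.65 (SE 0.76; edgeR, Benjamini-Hochberg adjusted p = 0.030).

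This call for Adgrl2 was kept in 11 of the 16 alternatives that tested it, and the direction in all of them. It was lost without WT replicate 1 (edgeR, Benjamini-Hochberg adjusted p = 0.072), WT replicate 2 (0.127), IRF8KO replicate 1 (0.067) or IRF8KO replicate 3 (0.092), and with the second strand column (0.051). Of 9 endothelial markers, 1, Pecam1, was tested and called lower, and it passed the filter on low counts only through the WT libraries. The sum of the 9 was 18.6 to 30.3 CPM in WT and 2.89 to 9.98 CPM in IRF8KO. Pecam1, which microglia also make, led the WT sums with 17.9, 21.0 and 18.3 CPM and had 0.963, 1.53 and 3.36 CPM in IRF8KO. Kdr also had more counts in WT, at 35, 129 and 2 against 0, 3 and 0 in IRF8KO. Flt1 went the other way, with 0 counts in each WT library and 5, 88 and 59 counts in IRF8KO, where it led the sums of replicates 2 and 3. Tek was at 0 in WT, and Cdh5, Slco1a4 and Esam at 0 in IRF8KO. Adgrl4 and Adgrf5, adhesion GPCRs known from endothelium and named here after their values were seen, had 0 counts in all 6 libraries. The part of endothelial cells in the Adgrl2 level was not tested.

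**Figure D2:**
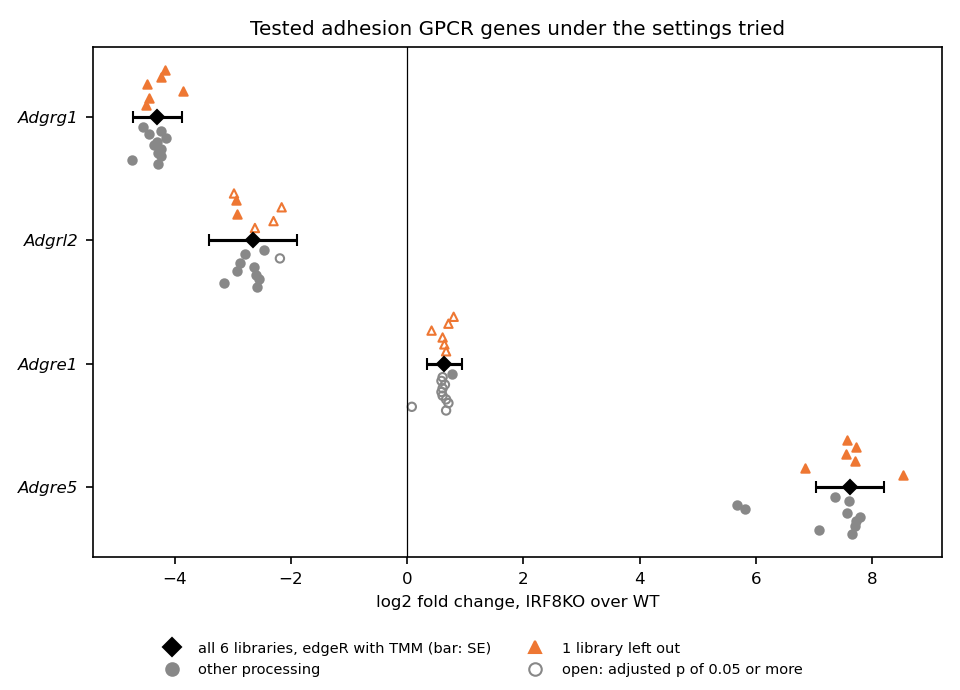
Log2 fold change of IRF8KO over WT (x axis) for the 4 tested receptors, with all 6 libraries (diamond, bar of 1 SE), with other processing (circles) and with 1 library left out (triangles). Open circles and triangles have an adjusted p of 0.05 or more: none for Adgrg1 and Adgre5, 5 for Adgrl2, and all but the GC offset for Adgre1.

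The 5 receptors below the filter had at most 23 counts in any library and at most 51 over all libraries in the column without strand. Adgrl1 (chr8:83900105-83941954, plus strand), latrophilin 1, the neuronal receptor of the spider toxin latrotoxin, had 3, 8 and 7 counts in WT and 3, 7 and 23 in IRF8KO. Its groups overlapped, and 15.6% of its exonic length is shared with predicted genes. Tested with no low-count filter, its log2 fold change was 0.73 (edgeR, Benjamini-Hochberg adjusted p = 0.704). Adgrl1 had more counts in the strand columns, with 16, 31 and 26 in the first and 15, 29 and 30 in the second for WT, and 27, 22 and 40 and 24, 34 and 41 for IRF8KO, so its level depends on the column. There it passed the filter, and its log2 fold change was 0.28 in both (edgeR, Benjamini-Hochberg adjusted p = 0.746 and 0.738). Beside it, the 10 neuronal markers summed to 0.637 to 9.79 CPM in WT and 22.8 to 29.2 CPM in IRF8KO, with 2 of the 4 tested called higher. All 4 passed the filter on low counts only through the IRF8KO libraries. The part of neuronal RNA in the Adgrl1 counts was not tested.

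Adgre4 was seen almost entirely in 1 WT library. Adgre4 (chr17:55749984-55853662, plus strand), a myeloid relative of F4/80, had 2, 21 and 0 counts in WT and 1, 0 and 0 in IRF8KO. WT replicate 2, which held most of these counts, was the deepest WT library. It was also the highest in CPM of the plain library size, at 0.547, 1.93 and 0 in WT replicates 1, 2 and 3. With no low-count filter it did not pass the test, at a log2 fold change of −3.59 (SE 1.82; edgeR, Benjamini-Hochberg adjusted p = 0.206); a fitted value at such counts depends on the prior count.

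Adgrg3 and Adgrg6 were hardly counted. Adgrg3 (chr8:95017692-95045250, plus strand), or GPR97, known from neutrophils, had 1 count in WT replicate 2 and 3 counts in IRF8KO replicate 2, the library with the granulocyte transcripts. Adgrg6 (chr10:14402583-14545659, minus strand), or GPR126, which Schwann cells need to make myelin, had 0 counts in all 6 libraries. A count of 0 allows up to 3 counts, which is 0.212 to 0.584 CPM by library, so low expression of Adgrg6 was not detectable at this depth.

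Several of the receptor genes are neighbours. Adgrg1 and Adgrg3 lie in this order on chromosome 8, both on the plus strand, with 3.47 kb and 0 protein-coding genes between them. Their levels were far apart, since per kb of exon Adgrg1 had 505 ± 215 CPM in WT and Adgrg3 had 0.00342 ± 0.00592 (SD, n = 3 each). Adgre5 and Adgrl1 lie 159 kb apart on the same chromosome, again with 0 protein-coding genes between them. Adgre5 had 15.8 ± 2.09 CPM per kb in IRF8KO and Adgrl1 had 0.140 ± 0.131. Adgre4 and Adgre1 are 1505 kb apart on chromosome 17, with 64 protein-coding genes between. A neighbour's high count was thus not shared at any of these places.

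Per length, the make-up of the 9 receptors' transcripts differed between the groups. Of their counts divided by exonic length, Adgrg1 supplied 73.4%, 75.7% and 86.8% in WT and 10.7%, 11.0% and 11.3% in IRF8KO. Adgre1 supplied 26.4%, 24.0% and 13.2% in WT and 83.5%, 82.6% and 79.7% in IRF8KO. The most abundant receptor per length was thus Adgrg1 in each WT library and Adgre1 in each IRF8KO library. Adgre5 made up 5.76%, 6.28% and 8.79% in IRF8KO and 0.0417%, 0.00358% and 0.00846% in WT, where these shares rest on 4, 1 and 2 counts. The other 6 receptors together made up at most 0.361% of any library. These shares do not depend on the scaling between libraries. Without dividing by length, Adgrg1 had 85.7% ± 5.18 of the counts in WT and 17.0% ± 0.331 in IRF8KO, and Adgre1 had 13.9% ± 4.93 and 75.3% ± 2.28 (SD, n = 3 each).

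As a ratio per kb within a library, Adgrg1 over Adgre1 was 2.78, 3.16 and 6.59 in WT and 0.129, 0.134 and 0.142 in IRF8KO. The ratio was nearly the same in the 3 IRF8KO libraries, and in WT it was highest in replicate 3, the library that stood apart. The means were 4.18 ± 2.10 and 0.135 ± 0.00656 (SD, n = 3 each). The means of the log2 ratios differed by −4.84, IRF8KO minus WT. The groups did not overlap, and an exact two-sided permutation test gave p = 0.10, the smallest that 3 libraries against 3 allow. Summed over the 9 receptors, the level was 497, 527 and 867 CPM per kb in WT and averaged 234 ± 58.0 CPM per kb in IRF8KO (SD, n = 3). In order of mean level per kb, WT ran from Adgrg1 (505 ± 215) and Adgre1 (124 ± 8.78) down to Adgrl2 (0.673 ± 0.329), and IRF8KO from Adgre1 (193 ± 51.2), Adgrg1 (25.7 ± 5.66) and Adgre5 (15.8 ± 2.09) down to Adgrl1 (0.140 ± 0.131) and Adgrl2 (0.103 ± 0.0796). In WT the values of neighbours overlapped from Adgrl2 over Adgre4 and Adgre5 to Adgrl1, and Adgrg3 and Adgrg6 stood below; in IRF8KO neighbours overlapped from Adgrl1 down. The order is that of the counts without strand, on which the place of Adgrl1 in WT depends.

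**Figure D3:**
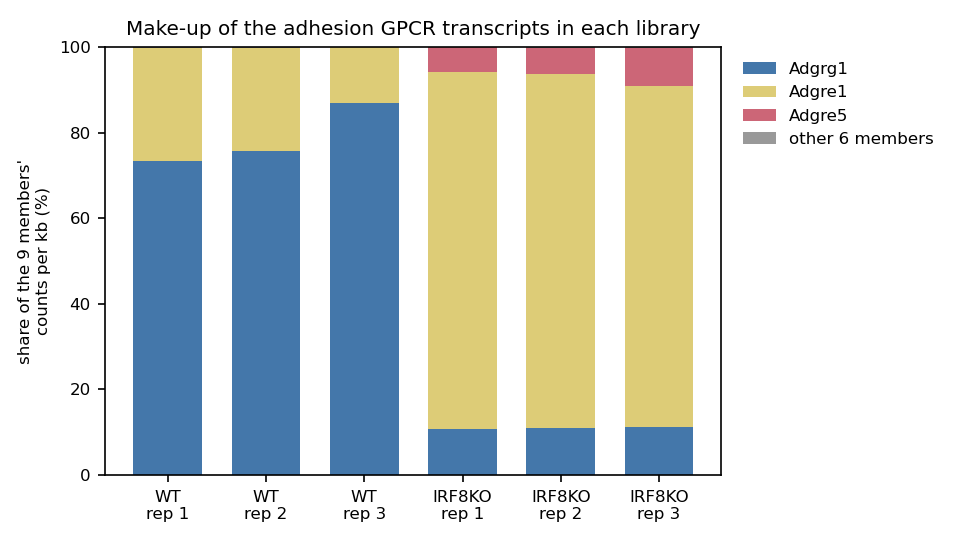
Share of the 9 receptors' length-scaled counts (percent, y axis) supplied by Adgrg1, Adgre1, Adgre5 and the other 6 genes in each library. Adgrg1 fills 73.4% to 86.8% of the WT bars and Adgre1 79.7% to 83.5% of the IRF8KO bars; the other 6 genes are too small to see.

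The rest of the family was almost silent. Of the 21 other adhesion GPCR genes, 12 had 0 counts in every library, 3 were tested, and none of the 18 untested genes had more than 59 counts in all. Adgra3 (GPR125), an orphan receptor, fell, with 55, 151 and 28 counts in WT and 7, 26 and 13 in IRF8KO, or 8.42 ± 3.95 against 1.62 ± 0.632 CPM (SD, n = 3 each). Its log2 fold change was −2.35 (SE 0.62; edgeR, Benjamini-Hochberg adjusted p = 0.022), and the call was lost without WT replicate 1 or 2 or without IRF8KO replicate 1 or 3. Adgrl3, latrophilin 3, had 1, 0 and 8 counts in WT and 22, 29 and 45 in IRF8KO and did not pass (log2 fold change 3.12, SE 1.12; edgeR, Benjamini-Hochberg adjusted p = 0.071). It was called higher in 6 of 16 alternatives (DESeq2, limma-voom, no low-count filter, the second strand column, the replicate block and without WT replicate 3), at log2 fold changes from 2.41 to 5.69 over all of them. Whether the latrophilins differ from each other in their change was not tested. Celsr2, a planar polarity cadherin, was not called either, at 0.32 (edgeR, Benjamini-Hochberg adjusted p = 0.859). Of these 3 genes none was called higher and 1 lower, beside 9.64% and 9.46% of all tested genes. Adgrl3 passed the filter on low counts only through the IRF8KO libraries and Adgra3 only through the WT libraries.

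Among 20 known ligands and membrane partners, 7 were tested, and 1 was called higher and 1 lower, beside 9.64% and 9.46% of all tested genes. The median log2 fold change of the 7 was 0.92, against −0.11 over all tested genes. The list was not tested as a set. Cd9, a tetraspanin known like CD81 to associate with GPR56, rose from 399 ± 92.0 to 811 ± 129 CPM (SD, n = 3 each; log2 fold change 1.02, SE 0.31; edgeR, Benjamini-Hochberg adjusted p = 0.037). Its call was lost with library size alone, at 0.46 on the log2 scale, with the replicate block, and without any 1 library other than WT replicate 3. Cd81, the tetraspanin best known as a partner of GPR56, had 8847 ± 3954 CPM in WT and 7673 ± 2103 CPM in IRF8KO and was not called (log2 fold change −0.21), though it was called lower with library size alone. Itgb1, the beta chain of the integrin to which CD97 binds, fell from 98.4 ± 40.1 to 41.3 ± 16.4 CPM (log2 fold change −1.25, SE 0.39; edgeR, Benjamini-Hochberg adjusted p = 0.041). The fall was not called without WT replicate 1 or 2 or IRF8KO replicate 1 or 3, nor with the second strand column or without Apoe. Its partner chain Itga5 was not called (log2 fold change 0.46) except without WT replicate 3.

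Other ligands differed in whether the sorted cells held their transcripts at all. Tgm2, transglutaminase 2, had 387, 1266 and 719 counts in WT and 1606, 1095 and 1316 in IRF8KO and did not pass (log2 fold change 0.92, SE 0.35; edgeR, Benjamini-Hochberg adjusted p = 0.090); it was called higher without WT replicate 3 or without IRF8KO replicate 2. Cd55, the ligand of CD97, had 1 count in the whole data set and its second copy Cd55b none, Thy1 had 0 in WT and 4, 12 and 4 in IRF8KO, and Col3a1 had 5 counts, all in WT replicate 1; these genes were picked as ligands after their values were seen. Prnp, another tested ligand, was low and not called, at a log2 fold change of 1.70 (edgeR, Benjamini-Hochberg adjusted p = 0.362).

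All 19 genes of G-protein coupling and downstream signalling were tested, and 1 was called higher and 0 lower, beside 9.64% and 9.46% of all tested genes. Their median log2 fold change was 0.10, against −0.11 over all tested genes, and the list was not tested as a set. Gna11, an alpha subunit of the Gq class, rose, with 157, 455 and 391 counts in WT and 502, 849 and 779 in IRF8KO (log2 fold change 1.05, SE 0.30; edgeR, Benjamini-Hochberg adjusted p = 0.030). It was not called with library size alone, at 0.60 on the log2 scale, or without any 1 library other than WT replicate 3. Gna12 and Gna13, the alpha subunits through which GPR56 and CD97 are known to reach RhoA, had 460 ± 128 and 68.2 ± 18.0 CPM in WT and 415 ± 68.1 and 57.1 ± 4.75 CPM in IRF8KO and were not called. Rhoa had 105 ± 5.23 CPM in WT and 163 ± 17.0 CPM in IRF8KO and was not called (log2 fold change 0.64; edgeR, Benjamini-Hochberg adjusted p = 0.103) except, as higher, with the GC offset and without WT replicate 3.

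**Figure D4:**
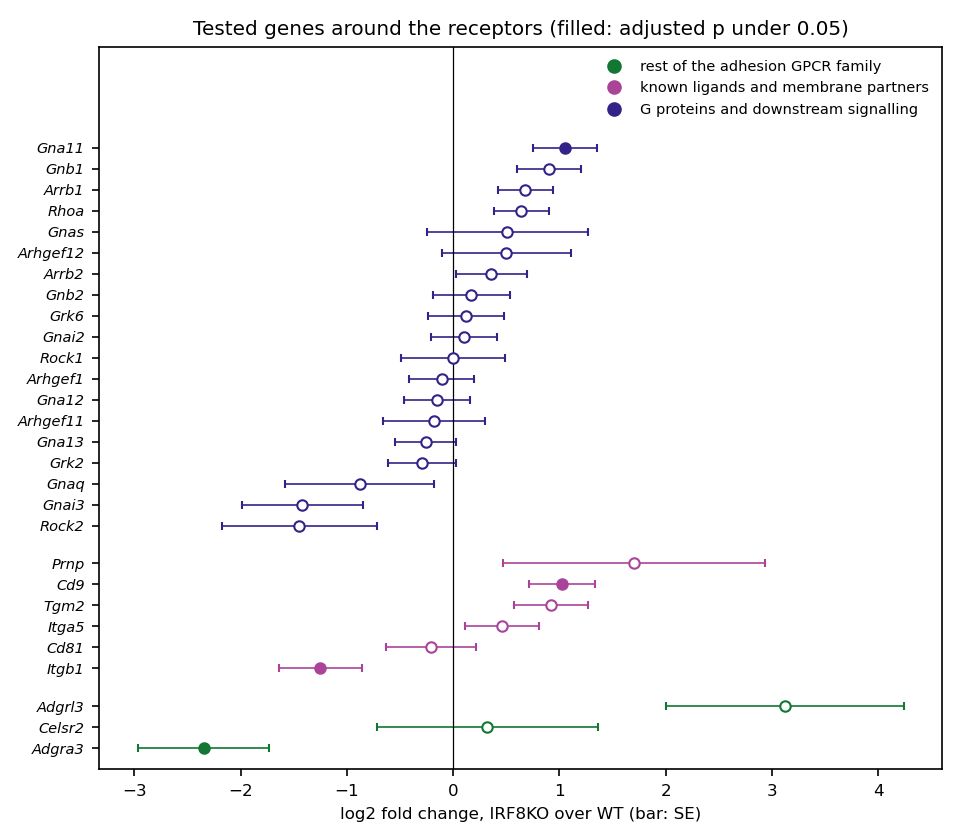
Log2 fold change of IRF8KO over WT (x axis, bars of 1 SE) for tested genes among the rest of the family, the ligands and partners, and the signalling genes; filled points have an adjusted p under 0.05. The 4 filled points are Adgra3 (−2.35), Itgb1 (−1.25), Cd9 (1.02) and Gna11 (1.05).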

How the data were processed

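The deposited values are the authors' raw counts of reads on genes, laid out as STAR does it: 4 summary lines, then a count that ignores strand and a pair of strand counts. Per the submitters' processing notes, STAR 2.5.2b, Picard 2.17.11, Subread, featureCounts, bcl2fastq and mm10 were used; the role of each and the annotation release are not given in the sources used here. Per the labels' protocols, cDNA was made with SMART-Seq v4 and tagged with Nextera XT, which mark neither strand nor molecules; 49.8% to 50.3% of gene counts fell on a gene's own strand, so the count without strand was used. Reads in no gene were 2.44% to 7.70% of uniquely mapped reads, and the summary lines stayed out of library sizes.

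Identifiers were matched to GENCODE M21 (GRCm38), 49326 of 49585 with 259 unmatched; 43749 had the same version, and those of Adgre1 and Adgrg6 differed. Positions and exonic lengths are from M21, and for these genes may differ slightly from the models counted. Counts were tested in R 4.3.3 with edgeR 4.0.16 (quasi-likelihood test, TMM scaling, expression filter at a minimum count of 10, Benjamini-Hochberg adjustment over 11041 genes, called under 0.05), and tested on simulated data first. SEs come from the F statistic. CPM use TMM-scaled library sizes, so their sum differs between libraries. Alternatives used DESeq2 1.42.0, limma-voom (limma 3.58.1), other scalings, filters and strand columns, a GC offset, a replicate block and each library left out. The rule was to name all 9 members, and from the other lists those that passed, with the tested ligands and family genes; 1 member and a few list genes are counted in the totals but not reported here by name. The members, gene lists and motifs were chosen with earlier results of these data known. Planned protein features were not used.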

Additional observations from a re-analysis of the deposited data

How the results depend on the processing

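Over all genes, 2109 were called, and leaving out 1 library gave 910 (without IRF8KO replicate 3) to 4003 (without WT replicate 3). Scaling by library size alone moved the all-gene median log2 fold change from −0.11 to −0.61 and the calls to 651 higher and 1908 lower, or 25.4% higher against 50.5%. Of the receptors, 1 was called higher and 2 lower. With at least 10 counts in every library, which drops Adgre5 and Adgrl2 from the test, these counts were 0 and 1, with the GC offset 2 were called higher, and with the second strand column 1 was called lower. Leaving out 1 library gave 1 receptor higher each time and 1 to 2 lower. Whether shared replicate numbers pair the samples is not given in the labels. The correlations of deviations from the group means were −0.26, 0.328 and 0.114 for numbers 1, 2 and 3. WT replicates 1 and 3 correlated best with other numbers, and WT replicate 2 with its own. Deviations from a mean of 3 libraries depend on each other, so these values cannot settle the question. A fit with the replicate number as a block called 2353 genes over all, and 1 receptor higher and 2 lower, with log2 fold changes of −4.23 for Adgrg1, 7.60 for Adgre5, −2.79 for Adgrl2 and 0.61 for Adgre1. None of the 4 tested receptors' log2 fold changes reversed under the alternatives in which they were tested. At this depth 5 receptors stayed below the filter on counts without strand; Adgrl1 passed it in both strand columns and was not called.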
